A study of Mus musculus with 8 samples.

Results

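The nuclear receptors described here are 8 transcription factors chosen by name, of 14353 genes in a table of libraries from the ventral pallidum (VP). They are the steroid receptors *Nr3c1*, *Nr3c2* and *Esr1*, the thyroid hormone receptors *Thra* and *Thrb*, the ROR receptors *Rora* and *Rorb*, and the retinoic acid receptor *Rarb*. All 8 had a row in the table, and all 8 passed the filter on low values, so none was lost. Translating ribosome affinity purification (TRAP) was applied to the VP of mice that combined vGluT2-Cre with RiboTag, so that cells which have expressed the vesicular glutamate transporter vGluT2 carry hemagglutinin on the ribosomal protein Rpl22. The TRAP sample is the mRNA pulled down with the tagged ribosomes. INPUT is titled Input and is taken here as the lysate before the pulldown, though the methods also name an unbound fraction. Every mouse was homozygous for VGluT2-Cre, heterozygous for the tagged Rpl22 and untreated. The 8 libraries came from 4 pools, each with 1 TRAP and 1 INPUT library. Pool VP1.6 held tissue of 3 male and 4 female mice aged 9 to 12 weeks, pools VP2.2 and VP2.11 each of 4 male and 6 female mice, and pool VP2.6 of 4 male and 7 female mice, the last 3 pools at 10 to 16 weeks. A pool therefore mixed the sexes, and no animal was measured alone.

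Nuclear receptors are transcription factors that a small lipophilic molecule can switch on. Glucocorticoid (*Nr3c1*), mineralocorticoid (*Nr3c2*) and estrogen (*Esr1*) receptors are held by heat shock chaperones until steroid binds, and then act mostly as homodimers. Thyroid hormone and retinoic acid receptors sit on DNA with a retinoid X receptor (RXR) partner, holding corepressors without ligand and coactivators with it. The RORs bind DNA as monomers and drive clock genes such as *Arntl*. In the brain, *Rarb* is best known from striatal neurons, *Rora* from thalamus and cerebellum, and *Esr1* from hypothalamus and preoptic area.

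The 2 members with the largest differences between fractions, *Rarb* (lower in TRAP) and *Rora* (higher), are shown by their promoters. *Rarb* is known to be induced by retinoic acid through a direct repeat of receptor half-sites near one of its own promoters, and retinoid genes form one of the groups described below. Both are the 250 bases before a RefSeq start site (GRCm38.p6), printed 5′ to 3′ on the strand of the gene. Capitals mark the direct repeat with a spacer of 5 bases, the arrangement bound by retinoic acid receptors with RXR.
*Rarb*, chr14:16575477-16575726, minus strand: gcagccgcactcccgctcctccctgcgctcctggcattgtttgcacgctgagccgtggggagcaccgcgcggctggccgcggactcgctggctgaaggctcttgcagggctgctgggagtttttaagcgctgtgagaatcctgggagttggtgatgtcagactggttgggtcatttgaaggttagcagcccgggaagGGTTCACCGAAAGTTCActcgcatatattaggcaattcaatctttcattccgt
*Rora*, chr9:68653536-68653785, plus strand: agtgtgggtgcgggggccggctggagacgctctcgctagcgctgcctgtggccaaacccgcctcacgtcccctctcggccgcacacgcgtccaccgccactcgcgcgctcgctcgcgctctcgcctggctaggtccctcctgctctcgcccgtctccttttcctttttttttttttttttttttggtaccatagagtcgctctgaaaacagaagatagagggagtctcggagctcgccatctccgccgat

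The capitals in the *Rarb* window spell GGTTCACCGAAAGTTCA, from 53 to 37 bases before the start site, which lies inside the gene and not at its outermost end. The direct repeat spaced by 5, searched on both strands, was found in 32 of 32851 promoter windows (0.0974%), each window taken for the search from 250 bases before to 50 after a start site. Of the 8 receptors, 6 matched 9 windows, and *Nr3c1* and *Thra* were not among them. The single half-site AGGTCA, on either strand, was found in the *Thrb* windows and in 16.3% of all windows, and TATAAA in the *Thrb* windows and in 13.6% of all. The direct repeat spaced by 4 (0.0822% of all windows), the glucocorticoid response element AGAACANNNTGTTC (0.0487%), the estrogen response element GGTCANNNTGACC (0.07%) and the ROR response element (0.384%) were found in no window of the members. These are matches of letters, and matches to a half-site and to a longer element may overlap. Of the 31 genes whose windows held the direct repeat spaced by 5, 6 were tested, and 1 was higher and 2, *Rarb* among them, were lower in TRAP whether or not the pool was in the fit. The other lower gene was *Syndig1* (log2 fold change -0.95), and the higher one was *Prokr2* (1.36). Of all genes tested, 47.9% were called without the pool in the fit and 32.2% with it. With so few genes, the count is too near these shares to be a result about genes with the repeat.

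One property of the deposited values bears on every test. For 14352 of 14353 genes, the ranges from INPUT to TRAP in the 4 pools share a common level (within 0.01 on the log2 scale). When each TRAP library was set beside the INPUT library of another pool, in 9 such pairings, this was so for 48.3% to 56.6% of genes. In these values a gene with 1 direction in all 4 pools therefore also has TRAP and INPUT libraries that do not overlap, and this held for each of the 6791 such genes tested. Around the mean of its fraction, a TRAP library and the INPUT library of its pool tended to lie on opposite sides (mean correlation across genes -0.661). Deviations from a fraction mean cancel out over the 4 pools. The mean of 0.222 for libraries of different pools therefore follows largely from the first value and is no separate baseline. The values look as if a shift per pool had been taken out before deposit, a step that the sources used here do not state. Each level, SD and range of single libraries below is of the values as deposited, and the spread between raw libraries may have been different. The 8 libraries are thus not 8 independent measurements. The fit of the fraction alone, without library weights (limma on the log2 values, adjusted by Benjamini-Hochberg), is given below with the fit that also holds the pool as a block. The study's methods state no pool term and weight the libraries, and weights are among the alternatives here. A difference is said to have risen or fallen in TRAP only where both call it. With 4 pools, the exact sign-flip permutation test has 16 sign patterns, of which at least 2 are as large as the one observed, so it cannot pass the threshold, and every member with 1 direction in all 4 pools sat at that limit.

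Of the 8 receptors, *Rora* rose and *Rarb* fell in TRAP. In the fit without the block, 2 receptors were called higher (*Rora*, *Esr1*) and 3 lower (*Rarb*, *Nr3c2*, *Thra*). Of all 14249 genes tested, 47.9% were called in that fit, 23.2% higher and 24.8% lower. With the pool as a block, 1 receptor was called higher and 1 lower, against 32.2% of all genes, 15.4% higher and 16.8% lower. That count depended on the setting: with the block, 5 receptors were called when the libraries were also weighted and 4 when the length trend was also taken out. By direction alone, 6 of 8 receptors went the same way in all 4 pools, 2 up and 4 down, against 47.7% of all genes. With so few genes, these shares are too near the background to be a result about the group, so the receptors are described one by one. Among all genes tested, the difference of *Rora* lies at percentile 98.0 and that of *Rarb* at percentile 9.64, and the median of all genes was -0.05.

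**Figure D1:**
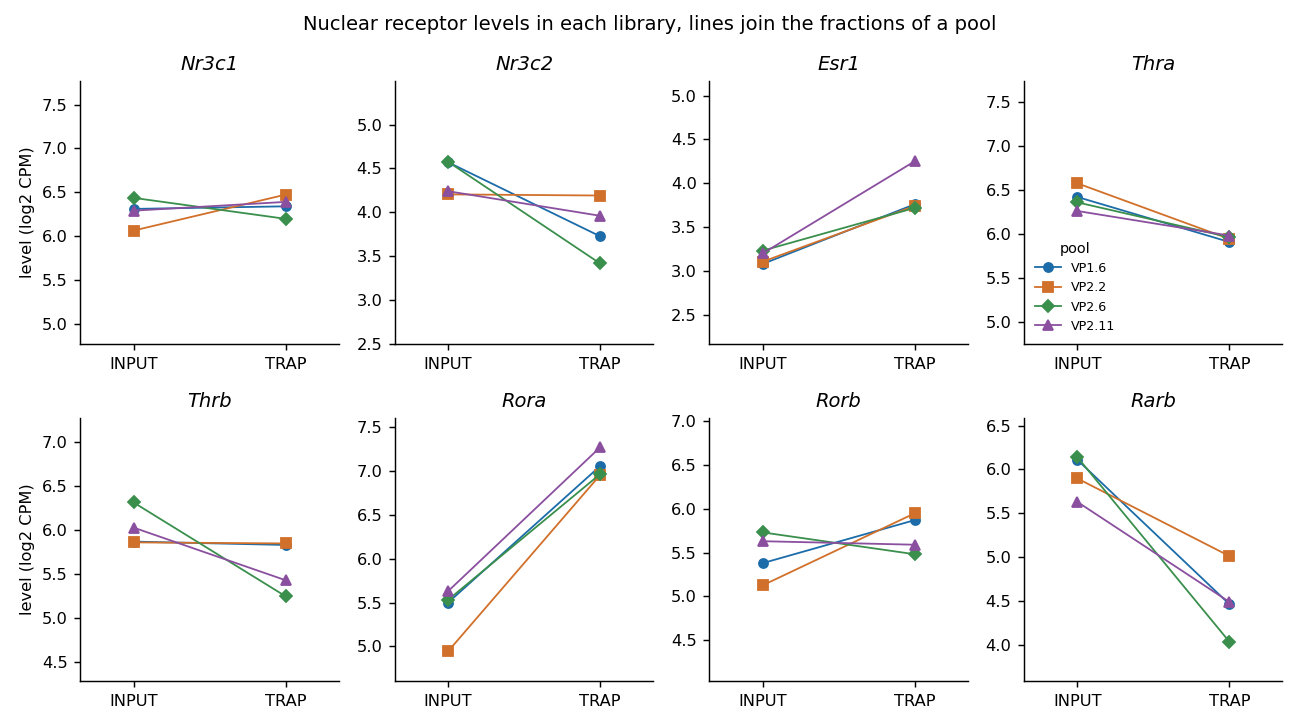
Level of each of the 8 receptors in log2 CPM (vertical axis, each panel spanning the same 3 log2 units) in INPUT and TRAP, with a line for each of the 4 pools. The lines of *Rora* rise in 4 of 4 pools and those of *Rarb* fall in 4 of 4, while those of *Nr3c1* and *Rorb* rise in some pools and fall in others.

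Of the steroid receptors, none was called in the fit with the block alone, and *Nr3c2* and *Esr1* were called in some fits that changed a second setting with it. *Nr3c1* (ENSMUSG00000024431, chr18:39410545-39519421, minus strand, GRCm38) encodes the glucocorticoid receptor, which reads circulating corticosterone. Its level in CPM (read counts scaled to library size, from the deposited values with the property above) in TRAP was 81.0 in VP1.6, 88.8 in VP2.2, 73.4 in VP2.6 and 83.9 in VP2.11, and in INPUT 79.3, 66.9, 86.6 and 78.2 in the same order. The fractions overlapped, and pool VP2.6 went against the other 3. The mean was 81.8 ± 6.46 CPM in TRAP and 77.8 ± 8.16 CPM in INPUT (SD, n = 4 each), and the log2 fold change was 0.08 (95% limits with the block -0.38 to 0.53; limma adjusted p = 0.82). Its sign turned in 7 of 18 alternative settings, so no direction is given.

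*Nr3c2* (ENSMUSG00000031618, chr8:76899442-77245012, plus strand) encodes the mineralocorticoid receptor, the other receptor for corticosterone in brain. It stood at 13.2, 18.3, 10.7 and 15.6 CPM in TRAP and at 23.8, 18.4, 23.8 and 18.9 CPM in INPUT (pools in the order above). TRAP was lower in each pool, but in VP2.2 by only 0.01 on the log2 scale. The log2 fold change was -0.57 (SE 0.19), and its limma adjusted p was 0.031 by fraction alone and 0.12 once the pool was in the fit (SE 0.27). Without pool VP1.6 it was -0.48 and without VP2.6 -0.38, and neither passed the threshold in either fit. With the block it was called at -0.82 when the libraries were also weighted (adjusted p = 0.00871) and at -0.72 when the length trend was also taken out (0.0304). Of the weights set by fraction alone, the largest was that of the INPUT library of VP2.6 (5.66, against 1.57 or less). In that pool *Nr3c2* fell most (-1.16), and the weights of the fit with the block are not given here. Compared within pools, *Nr3c1* minus *Nr3c2* in TRAP minus INPUT was 0.65 ± 0.29 (SD, n = 4 pools) and above 0 in 4 of 4 (exact sign-flip permutation test, 2 of 16 patterns as large, the fewest possible; 5 gene pairs were compared in all).

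*Esr1* (ENSMUSG00000019768, chr10:4611593-5005614, plus strand) encodes estrogen receptor alpha and was the receptor with the lowest level per kb of exon in both fractions. It stood at 13.6, 13.4, 13.2 and 19.0 CPM in TRAP and at 8.46, 8.61, 9.39 and 9.19 CPM in INPUT. TRAP was above INPUT in each pool, and the TRAP library of VP2.11 stood well above the other 3. The log2 fold change was 0.71, with a limma adjusted p of 0.0064 by fraction alone (SE 0.17) and 0.060 with the block (SE 0.28). Without VP2.11, it was 0.60 (adjusted p = 0.149 with the block), and with the block and library weights it was called at 0.65 (adjusted p = 0.042). Once the trend of each library on exon length was taken out, it was 0.24 and called in neither fit (adjusted p = 0.296 without the block), and the exons of *Esr1*, 13661 bases together, are the longest of the 8 receptors. Some genes used as hypothalamic markers were also higher in TRAP. Of 5, 3 were called higher in both fits (*Sim1*, *Otp* and *Fezf1*), against 23.2% of all genes without the block and 15.4% with it. Of these, *Sim1* and *Fezf1* passed the filter through TRAP, where they are higher. The summed level of the 5 was 16.5 to 32.0 CPM in TRAP and 6.48 to 10.4 CPM in INPUT. The most abundant in INPUT, *Nkx2-1* (3.03 CPM), was called lower by fraction alone. The part of these markers in the *Esr1* values was not tested. As for all values here, more cells of a type and more RNA per cell cannot be told apart in bulk libraries.

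The thyroid hormone receptors were both lower in TRAP in the mean, and neither was called in the fit with the block alone. *Thra* (ENSMUSG00000058756, chr11:98740638-98769006, plus strand), which encodes the thyroid hormone receptor that prevails in most brain neurons, had the highest level per kb of exon of the 8 receptors in both fractions. It stood at 60.0, 61.5, 62.3 and 63.1 CPM in TRAP, a span of a few CPM, and at 85.6, 95.4, 82.1 and 76.6 CPM in INPUT. The log2 fold change was -0.46, and each pool was lower, by 0.28 to 0.63. Its limma adjusted p was 0.0088 (SE 0.12), or 0.11 with the block (SE 0.21), and without the block it was also lost when VP1.6 (0.0624) or VP2.6 (0.0516) was left out. Exons of *Thra* overlap those of *Nr1d1* on the opposite strand over 263 bases (5.7% of the *Thra* exons), and whether reads were counted by strand is not stated.

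*Thrb* (ENSMUSG00000021779, chr14:17660261-18038090, plus strand), the receptor known for hormone feedback, hearing and vision, stood at 57.0, 57.6, 37.99 and 43.1 CPM in TRAP and at 58.5, 58.1, 79.7 and 65.3 CPM in INPUT. Pools VP1.6 and VP2.2 had nearly the same level in the 2 fractions (differences of -0.04 and -0.01), while VP2.6 and VP2.11 were lower by 1.07 and 0.60. The log2 fold change of -0.43 was not called (limma adjusted p = 0.063 by fraction alone, 0.18 with the block). It passed the threshold in 6 of 18 alternatives, among them those that weight the libraries (-0.59, or -0.55 with the block, adjusted p = 0.041) or take out the length trend (-0.64, adjusted p = 0.027 with the block). By fraction alone, the library with the largest weight was INPUT of VP2.6, the pool in which *Thrb* fell most. Without VP2.6 the log2 fold change was -0.22. The pair did not differ in one direction: *Thra* minus *Thrb* was -0.03 ± 0.62, lowest -0.62 and highest 0.67 (SD, n = 4 pools).

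*Rora* (ENSMUSG00000032238, chr9:68653786-69388246, plus strand) was the receptor that rose most. It encodes RORα, which activates *Arntl* and other genes of the clock. It stood at 133, 124, 125 and 154 CPM in TRAP and at 45.3, 30.8, 46.3 and 49.5 CPM in INPUT. The lowest TRAP library was well above the highest INPUT library, a separation that in these values goes with the same direction in every pool. The mean was 134 ± 14.1 CPM in TRAP and 43.0 ± 8.31 CPM in INPUT, a 3.16-fold difference (log2 fold change 1.66, SE 0.17 without and 0.21 with the block; limma adjusted p = 9.09e-05 and 9.18e-05). The 4 pools gave 1.56, 2.01, 1.43 and 1.64. It was called in each of the 18 alternatives, at 1.20 to 1.74, and the lowest value came with the length trend taken out.

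Its paralog *Rorb* (ENSMUSG00000036192, chr19:18930605-19111196, minus strand), known from retina, thalamus and layer IV cortex, stood at 58.5, 61.7, 44.7 and 48.2 CPM in TRAP and at 41.6, 34.9, 53.1 and 49.5 CPM in INPUT. The fractions overlapped: pools VP1.6 and VP2.2 were higher in TRAP by 0.49 and 0.82, and VP2.6 and VP2.11 lower by 0.25 and 0.04. The log2 fold change of 0.26 was not called (limma adjusted p = 0.44 with the block), and with the length trend taken out it was -0.13. It was 0.067 without VP2.2 and 0.42 without VP2.6, and called in neither case. Within pools, *Rora* minus *Rorb* was 1.404 ± 0.324 (SD), between 1.07 and 1.68 and so above 0 in 4 of 4 pools (exact sign-flip permutation test, 2 of 16 patterns as large).

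Most markers of other glutamatergic neurons, and 1 of the thalamic markers, also rose in TRAP beside *Rora*. *Slc17a6*, which encodes vGluT2 itself, stood at 130 to 162 CPM in TRAP and at 14.4 to 39.4 CPM in INPUT (log2 fold change 2.55, called in both fits). Of 5 markers of other glutamatergic neurons, 4 rose in both fits (against 15.4% of all genes called higher with the block), with *Tbr1*, a cortical transcription factor, at 3.16, and none fell. Their summed level was 161 to 236 CPM in TRAP and 35.1 to 65.5 CPM in INPUT, and *Slc17a7* was the most abundant. Of 5 thalamic markers, only *Tcf7l2* rose in both fits (1.31; *Lef1* was called higher by fraction alone), and *Tcf7l2* makes up 86.8% of the summed level in INPUT (324 to 445 CPM in TRAP and 125 to 170 CPM in INPUT, summed over the list), while *Gbx2*, a defining marker, was lower in TRAP in 3 of 4 pools and at 10.6 CPM in the TRAP library of VP2.11, against 0.533 to 1.59 CPM in the other 3 (log2 fold change -0.87, not called). The part of cells from neighbouring regions in the *Rora* values was not tested.

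*Rarb* (ENSMUSG00000017491, chr14:16430839-16819156, minus strand) was the receptor that fell most. It stood at 22.1, 32.3, 16.4 and 22.5 CPM in TRAP and at 69.1, 59.6, 70.5 and 49.5 CPM in INPUT. The highest TRAP library was below the lowest INPUT library, which here too goes with the same direction in every pool. The mean was 23.3 ± 6.59 CPM in TRAP and 62.2 ± 9.73 CPM in INPUT, 2.72-fold lower (log2 fold change -1.44, SE 0.21 without and 0.25 with the block; limma adjusted p = 0.00044 and 0.00075). The 4 pools gave -1.65, -0.88, -2.10 and -1.14. It was called in each of the 18 alternatives, at -1.70 to -1.22.

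Exons of *Rarb* overlap those of *Top2b* on the opposite strand over 1793 bases, or 34.1% of the *Rarb* exons. *Top2b*, which encodes a topoisomerase, rose in TRAP (108 ± 21.01 CPM against 38.6 ± 9.56 CPM in INPUT; log2 fold change 1.51, limma adjusted p = 0.000385 with the block), the opposite direction to *Rarb*. Whether strand was used is not stated. Only unambiguous reads were counted, so without strand, reads that overlap both genes would be left out of both. The level of *Rarb*, also per kb over all its exons, would then be too low, and its place among the receptors carries that uncertainty.

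Markers of striatal projection neurons, in which *Rarb* is known to be expressed, fell beside it. Of 5 markers, *Ppp1r1b*, *Drd1*, *Drd2* and *Adora2a* fell in both fits and *Rgs9* was not called, against 16.8% of all genes called lower with the block. The summed level was 229 to 305 CPM in TRAP and 444 to 611 CPM in INPUT, a mean log2 ratio of -1.01 ± 0.29 (SD, n = 4 pools). The most abundant of them, *Ppp1r1b*, made up 54.0% of the sum in INPUT, and the lowest marker in TRAP, *Drd2*, was at 4.30 CPM or more. *Rxrg*, the RXR partner also known from striatal neurons, fell from 103 ± 28.8 CPM in INPUT to 26.0 ± 6.25 CPM in TRAP (log2 fold change -1.98), and *Rarb* minus *Rxrg* was 0.54 ± 0.84, above 0 in 2 of 4 pools. The part of striatal cells in the *Rarb* values was not tested.

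**Figure D2:**
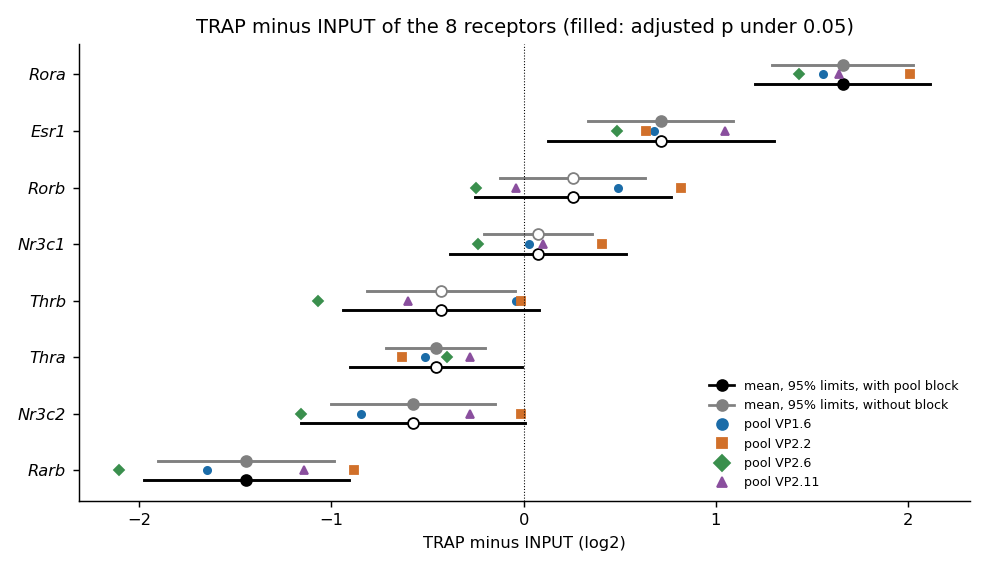
TRAP minus INPUT on the log2 scale (horizontal axis) for the 8 receptors: circles are means with 95% limits, black with the pool as a block and grey without, filled where the limma adjusted p is under 0.05, and small symbols are the 4 pools. Only *Rora* (1.66) and *Rarb* (-1.44) have a filled black circle.

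Per kb of exon (the union of annotated exons of a gene), the order of the receptors differed between the fractions. In INPUT, *Thra* was highest at 18.4 ± 1.71 CPM per kb (SD, n = 4), followed by *Rarb* at 11.8 ± 1.85, *Nr3c1* at 10.1 ± 1.06, *Thrb* at 8.84 ± 1.36 and *Rorb* at 4.04 ± 0.73. *Nr3c2* at 3.28 ± 0.46 and *Rora* at 3.29 ± 0.64 were next, and *Esr1* was lowest at 0.652 ± 0.033. In TRAP, *Thra* was again highest at 13.4 ± 0.29 CPM per kb, and *Nr3c1* at 10.6 ± 0.84 and *Rora* at 10.3 ± 1.08 came next with ranges that overlapped. *Thrb* at 6.61 ± 1.34, *Rorb* at 4.81 ± 0.74 and *Rarb* at 4.43 ± 1.25 followed, each overlapping its neighbour, and *Nr3c2* at 2.23 ± 0.50 and *Esr1* at 1.08 ± 0.21 were lowest. *Rora* thus stood near the bottom in INPUT, where its range overlapped that of *Nr3c2*, and in the upper group in TRAP, and *Rarb* stood second in INPUT, where it overlapped *Nr3c1*, and sixth in TRAP. In INPUT the ranges of *Nr3c1* and *Thrb* and of *Rorb* and *Nr3c2* also overlapped. The order depends on the length used: per kb of coding sequence, *Rora* was the highest in TRAP, at 80.2 ± 8.46 CPM per kb, *Thra* second, at 38.7 ± 0.84, and *Nr3c2* lowest, at 4.89 ± 1.10, below *Esr1* at 7.22 ± 1.39.

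**Figure D3:**
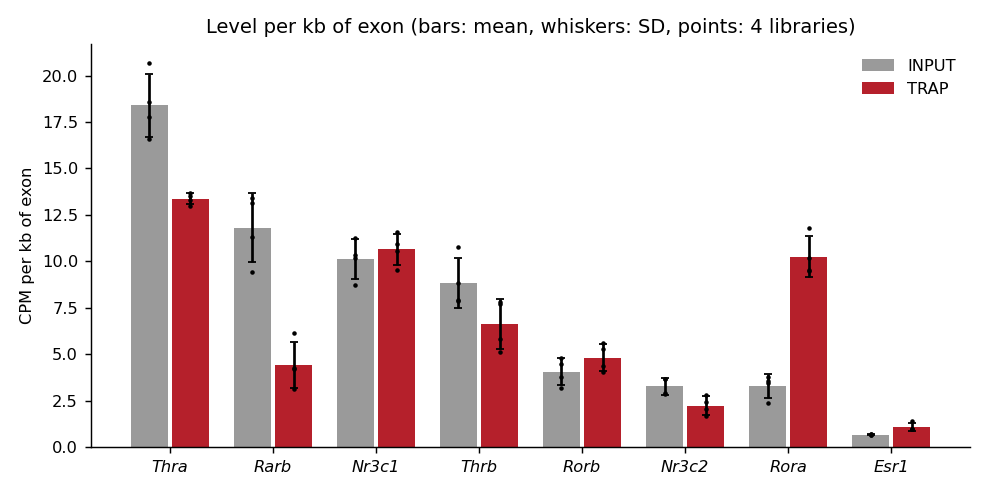
Level in CPM per kb of exon (vertical axis, from 0) of the 8 receptors in INPUT (grey) and TRAP (red): bars are means, whiskers SD, and points the 4 libraries. The TRAP bar of *Rora* (10.3) is above its INPUT bar (3.29), and the order is reversed for *Rarb* (4.43 against 11.8).

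Of 39 other nuclear receptors listed, 23 had a row and 21 were tested. Without the block 3 were called higher and 6 lower, and with it 3 higher and 3 lower (median log2 fold change 0.12, against -0.05 over all genes tested). Both counts lie near the background, 47.9% and 32.2% of all genes called, and are no result about the group. Those that rose were *Nr4a2* (1.49; 18.7 ± 3.66 CPM in TRAP and 6.86 ± 2.109 CPM in INPUT) and *Nr4a3* (1.45, and 0.94 without VP2.2), orphan receptors induced by activity, and *Nr2f2* (0.93; 175 ± 9.89 against 92.8 ± 16.4 CPM), which patterns ventral forebrain. Those that fell were *Nr2e1* (-2.32), known from neural stem cells and glia, *Rxrg* (above), and *Nr1h3* (-1.82; limma adjusted p = 0.052 with the block without VP2.6), a receptor for oxysterols. *Rxrg* was the most abundant of the 21 in INPUT.

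**Figure D4:**
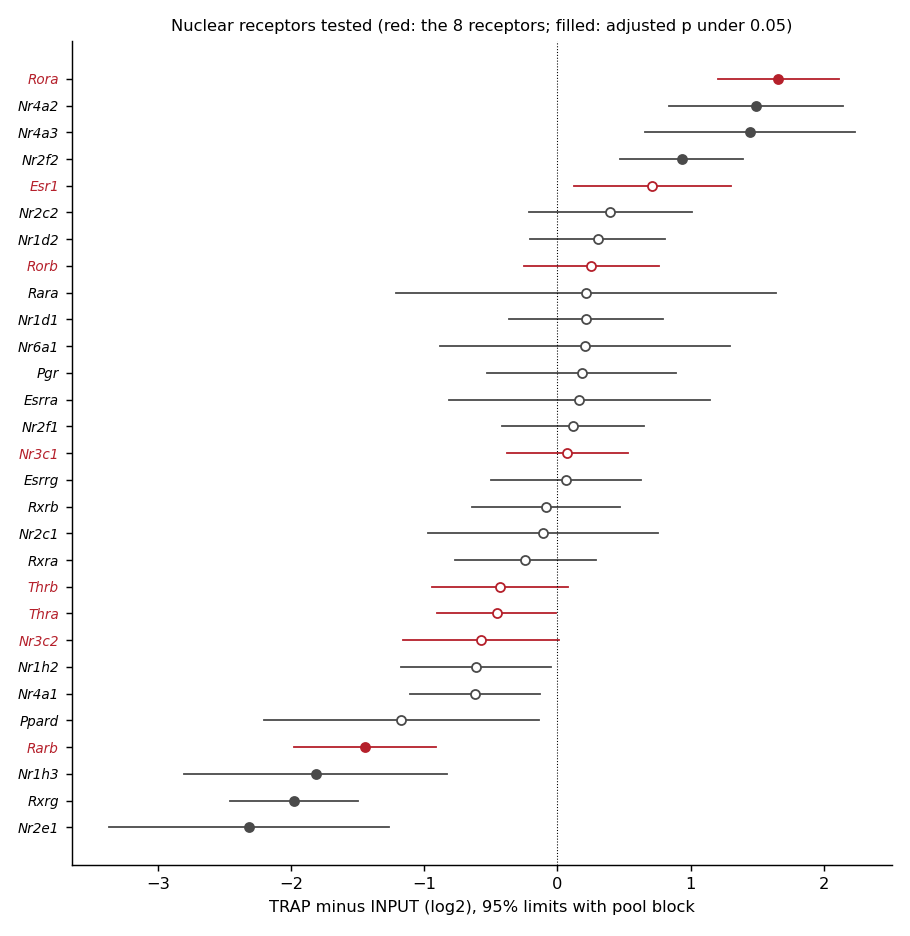
TRAP minus INPUT on the log2 scale (horizontal axis, with 95% limits from the fit with the block) of the 8 receptors (red) and 21 other nuclear receptors (grey), filled where the limma adjusted p is under 0.05. *Rora* has the highest value of those plotted, and *Rarb* lies with *Nr1h3*, *Rxrg* and *Nr2e1* at the low end.

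Chaperones that hold steroid receptors were mostly higher in TRAP. Of 10 listed, 9 were called higher without the block and 7 with it, against 23.2% and 15.4% of all genes, none was called lower, and the median log2 fold change was 1.03. With the block and without VP2.6, 5 were called. *Hsp90aa1* stood at 4002 ± 700 CPM in TRAP and 950.5 ± 172 CPM in INPUT (2.07), *Hspa8* at 9326 ± 3106 against 2700 ± 651 CPM (1.76), and *Hsp90ab1* at 9221 ± 1768 against 3276 ± 454 CPM (1.48). These are general chaperones of newly made proteins as well as of receptors. *Ptges3*, which encodes the p23 cochaperone, was not called (-0.22).

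Of 12 coactivators with values, 5 were called higher and 2 lower without the block, and 4 and 1 with it (median 0.34). Both counts lie near the background, 47.9% and 32.2% of all genes called, and with the block 3 to 4 were called without VP1.6, VP2.6 or VP2.11, so they say little about the group. *Smarca4*, an ATPase of the chromatin remodelling complex, rose by 1.16 on the log2 scale, *Ncoa6* by 1.10 and *Ncoa3* by 0.96, while *Crebbp*, a histone acetyltransferase and the most abundant in INPUT, fell by 0.61, a call lost when any 1 of those 3 pools was left out. Of 8 corepressors, 1 was called higher without the block and 0 with it (1 at an unadjusted limma p under 0.05 with the block), and none was called lower in either fit. That gene, *Ncor1*, the most abundant, was at 170 ± 16.9 CPM in TRAP and 117 ± 15.9 CPM in INPUT (0.55; adjusted p = 0.064 with the block).

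Genes that supply or bind the ligands of these receptors are given by hormone, and differences between these groups were not tested. Of 10 retinoid handling genes tested, 7 fell in both fits and none rose (of all genes, 24.8% were called lower without the block and 16.8% with it). Of the 7, *Crabp2*, *Rbp4* and *Stra6* passed the filter on low values through INPUT, where they are higher, so the filter bears on their direction and the count is given as a description. With over 1 CPM required in all 8 libraries 4 were called, and with the block 4 to 5 when any 1 pool was left out. *Crabp1*, a cellular carrier of retinoic acid, was at 3.66 ± 0.59 CPM in TRAP and 20.7 ± 4.68 CPM in INPUT (-2.48), and *Dhrs3*, which reduces retinaldehyde and was the most abundant in INPUT, at 17.1 ± 3.82 against 51.1 ± 15.4 CPM (-1.56). *Crabp2*, the paralog of *Crabp1*, was at 0.417 ± 0.282 CPM in TRAP and 7.83 ± 2.94 CPM in INPUT, and *Rbp4*, the plasma retinol carrier, at 0.888 ± 1.15 against 3.05 ± 1.27 CPM, a call lost without VP1.6 or VP2.11. With mean TRAP levels under 1 CPM, the size of the last 2 differences depends on the offset the authors used for low counts, and no fold is given. The other 3 that fell, named after their values were seen, were *Stra6* and the retinaldehyde dehydrogenases *Aldh1a1* and *Aldh1a2*, and the degrading enzyme *Cyp26b1* was not called (0.53).

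Of 7 thyroid hormone handling genes, 1 was called higher and 3 lower without the block, and 0 and 3 with it. Of all genes, 23.2% were called higher and 24.8% lower without the block, and 15.4% and 16.8% with it. *Ttr*, the hormone carrier made by choroid plexus, was at 38.9 ± 15.6 CPM in TRAP and 260 ± 46.3 CPM in INPUT (-2.83). *Dio2*, the glial enzyme that makes active hormone, was at 1.44 ± 0.76 against 5.72 ± 1.22 CPM (-2.112), and *Crym*, a cytosolic hormone-binding protein, at 153 ± 22.1 against 297 ± 37.2 CPM (-0.96). Of 7 steroid handling genes, 3 were called in each direction without the block, and 1 higher and 2 lower with it, beside the same shares of all genes. With so few genes, the count with the block is near the 32.2% of all genes called and is no result about the group. The 6 calls without the block came down to 2 when VP1.6 was left out and to 1 when VP2.6 was, and to 4 with over 1 CPM required in all 8 libraries. One of the higher calls, *Abcb1a*, passed the filter through TRAP, where it is higher. *Hsd17b4*, a peroxisomal enzyme, rose by 1.25 on the log2 scale, while *Hsd11b1*, which regenerates corticosterone, was at 1.59 ± 0.94 CPM in TRAP and 3.74 ± 0.16 CPM in INPUT. Its difference of -1.56 was -3.48 in VP2.11 and between -1.41 and -0.49 in the other 3, and it was -0.92 without VP2.11 and no longer called with the block when any 1 pool was left out. *Srd5a1*, a steroid reductase, fell by 1.03, a call lost without VP2.6 or VP2.11. *Hsd17b10*, the most abundant, was not called with the block (-0.70; limma adjusted p = 0.064), and without VP2.2 was at -0.29.

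Most glial markers were lower in TRAP beside these groups (of all genes, 24.8% were called lower without the block and 16.8% with it). Of 5 astrocyte markers 4 fell in both fits (summed level 150 to 253 CPM in TRAP and 343 to 502 CPM in INPUT, most abundant *Slc1a3*), of 4 oligodendrocyte markers 3 (190 to 263 against 515 to 828 CPM, most abundant *Mobp*, while *Mag* was called higher by fraction alone, 0.61, and not with the block, adjusted p = 0.072), and of 5 microglial markers 3 (16.6 to 25.5 against 57.5 to 92.3 CPM, most abundant *C1qb*). The lowest glial marker in TRAP was *Tmem119*, at 0.171 ± 0.182 CPM, a level that cannot be told from a count of 0 because of the offset for low counts, and it passed the filter through INPUT. Of 4 endothelial and pericyte markers with values, *Flt1* rose and none fell (16.9 to 52.3 against 20.4 to 28.6 CPM, most abundant *Rgs5*). Their part in the ligand genes was not tested.

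**Figure D5:**
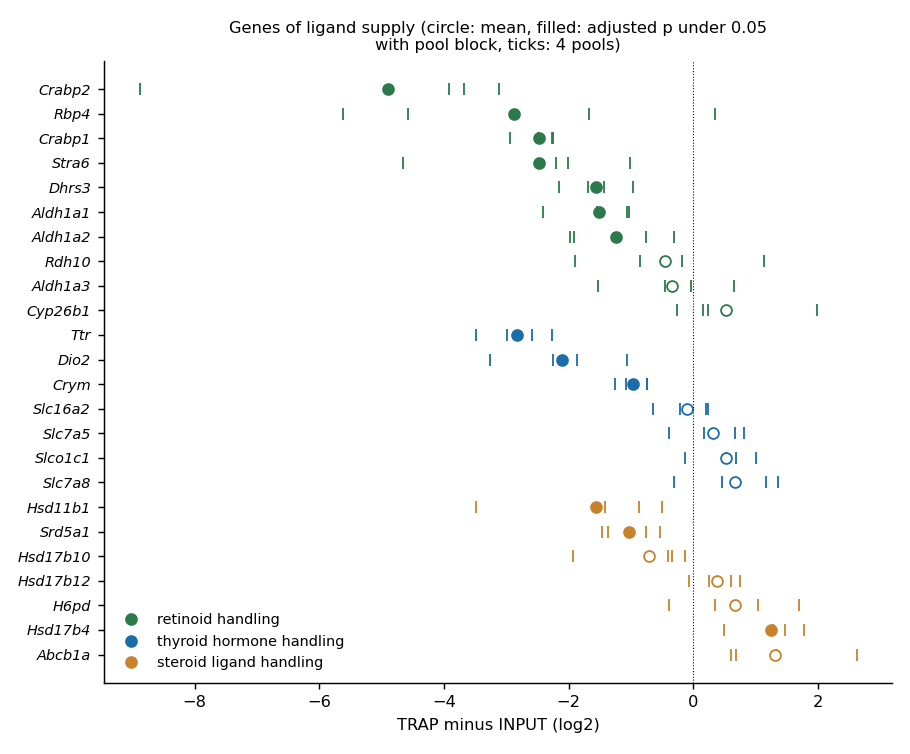
TRAP minus INPUT on the log2 scale (horizontal axis) of genes of retinoid (green), thyroid hormone (blue) and steroid (orange) handling: circles are means, filled where the limma adjusted p with the block is under 0.05, and ticks are the 4 pools. The 7 filled retinoid genes lie below 0 (3 of them passed the filter through INPUT), and the filled steroid genes lie on both sides. Where TRAP is under 1 CPM, as for *Crabp2*, the size depends on the offset for low counts.

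Genes known to respond to these receptors were called in both directions. Of 14 glucocorticoid-induced genes, 4 were called higher and 4 lower without the block, and 1 and 4 with it (median -0.02). Of all genes, 23.2% were called higher and 24.8% lower without the block, near the first of these counts, and 15.4% and 16.8% with it. Of the list, 4 in all were called without the block when VP1.6 or VP2.6 was left out. The metallothioneins *Mt1* (63.6 ± 9.54 CPM in TRAP and 836 ± 467 CPM in INPUT; -3.57) and *Mt2* (-3.72), abundant in glia, fell, as did *Pdk4*, a mitochondrial kinase at 0.640 ± 0.660 against 2.96 ± 1.16 CPM whose call was lost without VP2.6. *Pdk4* passed the filter on low values through INPUT, where it is higher, so the filter bears on its direction and on the count of lower calls. *Fkbp5*, counted both here and among the chaperones, was called higher only without the block. Of 10 thyroid hormone-responsive genes, 3 were called higher and 5 lower without the block, and 1 and 4 with it (median -0.57). Without the block, 5 in all were called when VP2.6 was left out. Those that fell include *Mbp*, which encodes a myelin protein (335 ± 68.4 against 1586 ± 477 CPM; -2.23), *Thrsp* (-1.54), and *Cbr2* (0.208 ± 0.099 against 5.06 ± 0.52 CPM), which also passed the filter through INPUT, so that its direction and its place in the count rest in part on the filter. *Klf9*, a target of both hormones, was at 115 ± 4.19 CPM in TRAP and 115 ± 5.57 CPM in INPUT.

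Of 10 ROR and clock target genes, 1 was higher and 1 lower in both fits, and without the block 4 in all were called when VP2.2 or VP2.11 was left out. Of all genes, 47.9% were called without the block and 32.2% with it. *Arntl*, the clock activator driven by RORs, rose from 15.7 ± 1.61 CPM in INPUT to 28.1 ± 2.59 CPM in TRAP (log2 fold change 0.84; limma adjusted p = 0.015 with the block, 0.052 without VP1.6 and 0.094 without VP2.6). *Pcp4*, known as a ROR target from cerebellum, went the other way (93.7 ± 11.9 CPM in TRAP and 285 ± 113 CPM in INPUT; -1.54), as did the striatal markers above. *Nr1d1*, a clock repressor, was between -0.84 and 0.89 in the 4 pools and was not called.

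Over the remaining lists of neurons, GABA markers were mixed: *Slc32a1*, *Lhx6* and *Dlx6* fell in both fits (against 16.8% of all genes called lower with the block), while *Gad1* and *Gad2*, the most abundant, were not called (summed level 938 to 1615 CPM in TRAP and 650 to 1494 CPM in INPUT). The TRAP library of VP1.6 had *Dlx6* at 0.031 CPM, a level set by the offset for low counts, so the size of that difference is not given. The sum was higher in TRAP than in INPUT only in VP2.2 (log2 ratio 1.31). Of 5 cholinergic markers, 3 fell with the block (*Slc18a3*, *Gbx1* and *Lhx8*) and *Chat*, the most abundant, was called higher by fraction alone (0.70; limma adjusted p = 0.034) and not with the block (0.066). The summed level was 96.7 to 147 CPM in TRAP and 65.0 to 118 CPM in INPUT, also highest in TRAP in VP2.2. Pool VP2.2 thus stood apart from the other 3 in these sums, and 6 of the 8 receptors, all but *Esr1* and *Thra*, had their highest TRAP minus INPUT in the same pool. Without VP2.2 the log2 fold change was 1.54 for *Rora* and -1.63 for *Rarb*, both called in both fits.

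The genes with patterns most like those of the receptors over the 8 libraries, by root mean square distance after centring each gene on its mean, were *Wdr35* and *Wdr6* for *Rora* (0.068 and 0.069 on the log2 scale). For *Rarb* they were *Aim2* and *Ntan1* (0.12 each), the largest distances among the 8 receptors. For the steroid receptors they were *Gpr162* and *Pcca* (*Nr3c1*), *Tmed7* and *Trappc10* (*Nr3c2*), and *Gtf2ird1* and *Wdcp* (*Esr1*). *Rpp30* and *Rab9* were nearest to *Thra*, *Hrasls* and *Dph1* to *Thrb*, and *Arhgap26* and *Hsd17b7* to *Rorb*, at 0.037 to 0.066.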

How the data were processed

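The authors aligned reads with STAR 2.5.1a to Ensembl release 76 (GRCm38), counted unique, unambiguous reads per gene with featureCounts, scaled libraries by TMM and fitted limma with voom and quality weights. The deposited per-library values are log2 CPM, 3 libraries of them rounded to 3 significant digits. Other deposited columns are from the authors' own comparison: log2 fold changes, p-values, a signed linear fold change (a score) and a transcript count per gene. The authors' comparisons were not used. The table gives no read totals and none were recovered here, so no counting error is given.

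Of 14398 entries, 45 repeats were left out. The 14249 genes with 3 or more libraries over 1 CPM were tested on the log2 values with limma 3.58.1 (lmFit, eBayes with trend; R 4.3.3), Benjamini-Hochberg adjusted p under 0.05, with fraction alone and with the pool as a block, since the 2 libraries of a pool come from 1 homogenate. Both fits were tested on simulated data in which the 2 libraries of a pool shared a shift in the same direction. In the deposited values they tended to lie on opposite sides (mean correlation -0.661). The simulation therefore does not show how often either fit errs on these values. A permutation over libraries was planned but is not reported, because libraries of a pool are not exchangeable; a sign-flip over pools replaced it. Positions and lengths are GENCODE M21, matched by identifier for 14349 genes, and promoters RefSeq. CPM is 2 to the power of the deposited value.

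The members and lists were chosen with earlier results of these data known. A few listed genes are not reported here and are outside the list counts, but stayed in the fits. Named from each list were its 3 genes of largest log2 fold change called in both fits and its most abundant in INPUT, and all other receptors called in both. Alternatives changed the filter, scaling, weights, offset, length trend, threshold and pools. Labels give 4 pools of 7 to 11 mice, 38 in all, at 9 to 16 weeks; the methods give other numbers of samples and mice and a narrower age range, and the labels are followed here. The methods name INPUT the lysate in one place and an unbound fraction in another, and the labels say Input.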

Additional observations from a re-analysis of the deposited data

Results flagged for a closer look

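In 82 groups of 4 libraries (41 genes named, each in TRAP and in INPUT), 10 held a library whose gap to the nearest other library took up more of the range of the group than chance usually gives, where chance gives about 4.1. Values are log2 CPM. Among the 8 receptors there was 1: *Esr1* in the TRAP library of VP2.11 was at 4.25, against 3.72 to 3.76 in the other 3.

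In INPUT, the VP2.11 library was low for *Nr1h3* (2.13, others 2.52 to 2.599) and *Smarca4* (5.83, others 5.92 to 5.93). The VP2.2 library of INPUT was low for *Nr4a3* (1.34, others 2.70 to 2.95) and *Hsd11b1* (1.81, others 1.93 to 1.94) and high for *Hsd17b10* (7.73, others 6.60 to 6.70). In TRAP, VP2.6 was low for *Nr2f2* (7.33, others 7.48 to 7.51), VP2.11 was low for *Crym* (6.91, others 7.34 to 7.38) and *Mbp* (7.87, others 8.47 to 8.59), and VP1.6 was low for *Crabp2* (-5.27, others -1.25 to -0.54).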

How the results depend on the processing

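*Rora* and *Rarb* were called in the same direction in 18 of 18 alternatives. With the pool as a replicate block, 2 receptors were called in place of 5 (*Nr3c2* -0.57, *Esr1* 0.71 and *Thra* -0.46 were lost), and 4592 genes in place of 6830. With array weights, 6 receptors were called, or 5 with the block, and with the length trend taken out and the block, 4. By fraction alone, the INPUT library of VP2.6 had the largest weight, 5.66, and the TRAP library of VP2.11 the smallest, 0.226. Leaving out 1 pool, alone or with the block, gave 2 to 6 receptors and 3232 to 6894 genes, fewest without VP1.6. A threshold of 1 on the log2 fold change gave 2 receptors and 3528 genes. *Nr3c1* turned sign with array weights (-0.071, or -0.039 with the block), quantile normalization (-0.069), the length trend taken out (-0.15) and VP2.2 left out (range over pools left out -0.036 to 0.18). *Rorb* turned sign with the length trend taken out (-0.13). *Esr1* lost its call with that trend taken out (0.24), and *Thra* lost it in the fits with the block that also had array weights (-0.44) or no length trend (-0.41). *Thrb* gained a call with array weights (-0.59, or -0.55 with the block), quantile normalization (-0.52) and the length trend taken out (-0.64). It also gained one in the fit without the block when VP2.2 was left out (-0.57). With 1 pool left out, *Nr3c2* ranged from -0.76 to -0.38, *Esr1* from 0.60 to 0.79, *Thra* from -0.51 to -0.40, *Thrb* from -0.57 to -0.22 and *Rorb* from 0.067 to 0.42. Taking out the length trend moved the median of all genes from -0.05 to 0.07 and the share of calls that were higher from 48.3% to 58.0% (57.8% with the block, from 47.9%). The causes were not tested.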
